A study of Mus musculus with 10 samples.

Results

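The 10 genes described here encode the vascular endothelial growth factor (VEGF) family (*Vegfa*, *Vegfb*, *Vegfc*, *Vegfd* and *Pgf*), the angiopoietins (*Angpt1* and *Angpt2*) and angiopoietin-like proteins (*Angptl2*, *Angptl4* and *Angptl6*). They were found by gene symbol in the deposited table of normalized counts, in which 25233 of 62322 entries carry a symbol, and each of the 10 was present. The bulk RNA-seq data cover 10 liver preparations from C57BL/6J mice, 5 of hypertrophied hepatic stellate cells (hypHSCs) and 5 of quiescent hepatic stellate cells (qHSCs). The hypHSC donors ate CDAHFD, a high-fat diet with defined amino acids that lacks choline, for 13 weeks in hypHSC 1 and 2 (age 19 weeks) and for 12 weeks in hypHSC 3, 4 and 5 (age 18 weeks). The qHSC donors ate a standard diet and were aged 36 weeks in qHSC 1, 2 and 5 and 34 weeks in qHSC 3 and 4. The labels name no transgene or drug in either group. Diet, age, digestion conditions and the fluorescence gate of the sort all differed between the groups, so their effects cannot be told apart. The labels do not say which animals gave each library, and p-values measure the spread between these preparations.

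Ligands of the VEGF family act through receptor tyrosine kinases on endothelial cells, where VEGF-A drives the growth of blood vessels and VEGF-C and VEGF-D that of lymphatic vessels. Angiopoietin 1 activates the endothelial receptor TIE2 and steadies vessels, whereas angiopoietin 2 is mostly a context-dependent antagonist of the same receptor. Angiopoietin-like proteins resemble angiopoietins in structure but do not bind TIE2. Hepatic stellate cells lie beside the sinusoidal endothelium of the liver and are a known source of several of these factors.

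Each hypHSC library held 30534719 to 43283589 reads on genes with a symbol, and each qHSC library 35640104 to 47317028. Transcripts of the mitochondrial genome took 2.21 to 12.8% of the reads on all entries, with or without a symbol, in hypHSCs and 1.25 to 1.61% in qHSCs. Of 9 markers of quiescent stellate cells, all 9 were lower in the libraries labelled hypHSC, and their summed normalized counts were 4546 to 8837 there against 278686 to 410728 in qHSCs. All 8 macrophage markers were higher in hypHSCs (summed 993775 to 1223330, against 4272 to 57501), as were all 4 markers of lipid-associated macrophages. None of these markers was at 0 throughout a group. Other cell types moved with the groups as well: neutrophil markers (3 of 3 tested higher) summed to 1462 to 5911 against 0 to 104, and cholangiocyte markers (3 of 3 higher) to 436 to 2711, highest in hypHSC 1, against 4.72 to 56.1. Except *Sox9*, these neutrophil and cholangiocyte markers entered the test through the hypHSC libraries alone or nearly so, and their counts are descriptions. Over all genes tested, 17.8% were higher in hypHSCs and 21.7% lower. Hepatocyte markers (8811 to 94535, highest in hypHSC 5, against 18292 to 65565, 0 of 7 called) and Kupffer cell markers (7431 to 17283 against 864 to 29016, 1 of 4 higher) overlapped between the groups. Sums of the remaining marker lists reached at most 785 (mesothelial), 1016 (portal fibroblast), 606 (T and NK cell) and 381 (B cell) in any library. Within qHSCs the macrophage sum was highest in qHSC 4 (57501) and qHSC 1 (25827), and within hypHSCs the sum of 5 markers of activated stellate cells was lowest in hypHSC 5 (4376) and hypHSC 4 (7035). The part of cell composition in the results below was not tested. In bulk RNA, fewer cells that express a gene and less of its RNA per cell cannot be told apart.

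Of the 10 genes, 9 reached 10 normalized counts in at least 5 libraries and were tested. A differentially expressed gene (DEG) differed by at least 1 on the log2 scale, in either direction, with a limma adjusted p of at most 0.05. Of the 9, 7 were DEGs, and in each of the 7 the groups did not overlap. Over all 14630 genes tested, 39.5% were DEGs and in 39.5% the groups did not overlap. *Vegfa* and *Angpt2* were higher in hypHSCs, as were 17.8% of all genes (17.6% without overlap), and *Vegfc*, *Angpt1*, *Angptl2*, *Angptl4* and *Angptl6* were lower, as were 21.7% (22% without overlap). On the recovered reads, 8 of the 9 were DEGs by DESeq2 (40.1% of all genes) and by edgeR (36.5%), 8 were DEGs with scaling on 3 qPCR reference genes (57.8%), and 7 of 10 without the filter (32.3%). *Vegfb* and *Vegfd* did not pass the test. *Vegfa* (10 or more normalized counts in the 5 hypHSC libraries alone) and *Angpt2* (in these and 2 qHSC libraries) entered the test through the group in which they were high, so the count of DEGs is a description. The median log2 fold change was -1.81 over the 9 and -0.20 over all genes tested.

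**Figure D1:**
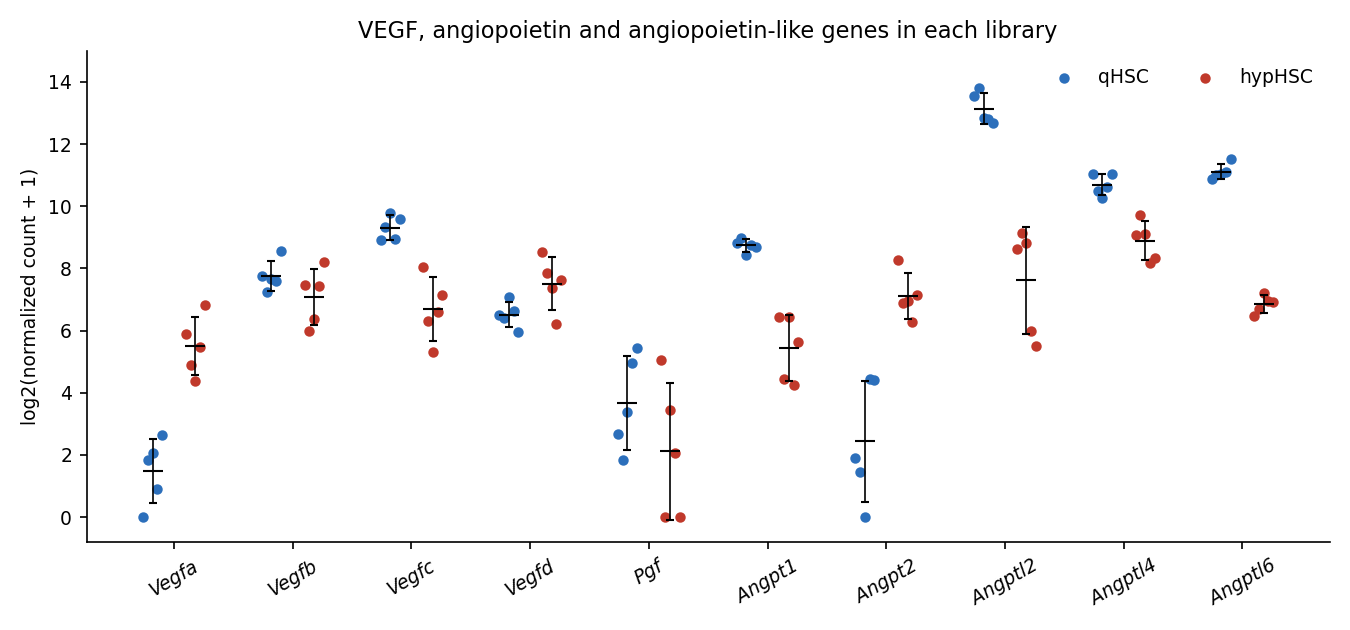
Level of the 10 genes in each library, as log2(normalized count + 1) on the vertical axis; each point is 1 library (blue, qHSC; red, hypHSC), and bars give the mean and SD of 5 libraries. *Vegfa* and *Angpt2* sit higher in every hypHSC library than in any qHSC library, and 5 other genes sit lower without overlap.

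Promoter sequence is shown for the VEGF gene that rose, for *Vegfb*, which did not pass the test, and for the 2 genes that fell most, a choice made after their values were seen. Each is the run of 250 bases before an annotated transcription start from RefSeq (GRCm38.p6, an older build than the mm39 coordinates below), written on the strand of the gene. Capitals mark ACGTG or GCGTG, the core of the hypoxia response element, and AGGTCA, the motif bound by nuclear receptors such as the PPARs, searched on both strands. *Vegfa* has 2 such entries, the upstream start at chr17:46032378-46032627 and a start inside the gene at chr17:46025164-46025413, both on the minus strand. The others are *Vegfb* at chr19:6987652-6987901 (minus), *Angptl2* at chr2:33215711-33215960 (plus) and *Angptl6* at chr9:20879711-20879960 (minus).
Vegfa, upstream start: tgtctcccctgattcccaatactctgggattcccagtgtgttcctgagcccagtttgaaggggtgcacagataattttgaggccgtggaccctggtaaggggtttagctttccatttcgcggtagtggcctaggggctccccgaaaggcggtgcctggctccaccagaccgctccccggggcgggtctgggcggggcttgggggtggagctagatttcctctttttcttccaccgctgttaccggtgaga
Vegfa, internal start: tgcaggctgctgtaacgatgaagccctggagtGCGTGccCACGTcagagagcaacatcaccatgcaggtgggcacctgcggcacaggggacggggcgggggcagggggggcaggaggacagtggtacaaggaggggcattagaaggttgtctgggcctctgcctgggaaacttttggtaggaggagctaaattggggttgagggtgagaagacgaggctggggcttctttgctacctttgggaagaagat
Vegfb: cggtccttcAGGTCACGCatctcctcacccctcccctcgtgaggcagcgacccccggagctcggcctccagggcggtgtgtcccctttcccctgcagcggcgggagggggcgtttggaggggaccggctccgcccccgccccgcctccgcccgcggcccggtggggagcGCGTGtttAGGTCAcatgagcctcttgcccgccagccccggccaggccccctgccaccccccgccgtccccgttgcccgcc
Angptl2: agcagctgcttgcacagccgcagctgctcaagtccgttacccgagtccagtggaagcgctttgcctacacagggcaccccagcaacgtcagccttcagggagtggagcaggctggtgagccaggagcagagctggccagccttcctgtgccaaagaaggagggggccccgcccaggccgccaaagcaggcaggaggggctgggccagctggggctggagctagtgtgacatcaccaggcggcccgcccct
Angptl6: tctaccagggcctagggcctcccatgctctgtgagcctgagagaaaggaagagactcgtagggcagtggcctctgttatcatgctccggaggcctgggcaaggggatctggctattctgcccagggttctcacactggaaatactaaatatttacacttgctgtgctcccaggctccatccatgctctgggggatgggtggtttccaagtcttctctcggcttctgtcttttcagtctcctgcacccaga

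The window before the upstream *Vegfa* start held neither motif, and the one before its internal start held 2 hypoxia cores. The *Vegfb* window held 2 hypoxia cores and 2 copies of AGGTCA, of which the first overlaps a core, and 76.4% of its bases were G or C. Neither motif was found in the windows of *Angptl2* and *Angptl6*, nor in those of *Vegfc* and *Vegfd*, and *Pgf* had 1 core in 1 of its 2 windows. Of 32851 RefSeq promoter windows of this length, 38.6% held a hypoxia core and 14% held AGGTCA. A match describes these letters alone and is no evidence of binding.

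*Vegfa* (chromosome 17, 46327922 to 46343303, mm39) encodes VEGF-A, the principal ligand of VEGFR1 and VEGFR2. The libraries hypHSC 1 to 5 had 57.9, 29.0, 19.96, 43.0 and 112 normalized counts. Their counterparts qHSC 1 to 5 had 0, 2.56, 3.15, 0.86 and 5.25, which rest on 0, 3, 4, 1 and 7 reads. Transcripts of *Vegfa* were thus scarce in both groups, and every hypHSC library lay above every qHSC library. The mean was 52.4 ± 36.3 (SD, n = 5) in hypHSCs against 2.36 ± 2.05, and the log2 fold change was 4.01 (standard error 0.69, 95% interval 2.49 to 5.53, limma adjusted p = 0.000661). An exact two-sided permutation test gave p = 0.00794, the smallest value that 5 against 5 libraries can give, and the same value held for each of the 7 DEGs among the 10 genes. With so few qHSC reads the size depends on the pseudocount, and it was 2.80 with a pseudocount of 5 in place of 1.

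*Vegfb* (chromosome 19, 6959840 to 6965020), whose product binds VEGFR1, had 174, 62.1, 82.3, 173 and 293 normalized counts in hypHSC 1 to 5. In qHSC 1 to 5 the counts were 215, 150, 200, 193 and 373. The 2 ranges overlapped over most of their length. The log2 fold change of -0.67 (95% interval -1.64 to 0.30) did not pass limma's test (adjusted p = 0.235), and the interval leaves room for a fall of more than 2-fold. It was called lower when libraries were scaled on the 3 qPCR reference genes *Hprt*, *Pgk1* and *Actb* (-1.60, adjusted p = 0.0214), a scaling that moved the median of all genes to -1.12, and with hypHSC 1, 2 and 3 only (-1.15, adjusted p = 0.0321). In the main fit *Hprt* (1.25) and *Pgk1* (1.44) were themselves higher DEGs in hypHSCs. *Actb* was not called (0.12) and ranged from 18213 to 296496 normalized counts within hypHSCs. Results under this scaling carry these differences.

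*Vegfc* (chromosome 8, 54530567 to 54640131) encodes VEGF-C, the chief lymphatic growth factor and a ligand of VEGFR3. It had 265, 78.7, 38.3, 96.5 and 141 normalized counts in hypHSC 1 to 5. The same gene had 478, 648, 885, 493 and 765 in qHSC 1 to 5. The lowest qHSC library stood above the highest hypHSC library, which was hypHSC 1. Its mean fell from 654 ± 175 (SD, n = 5) to 124 ± 87.3, a log2 fold change of -2.63 (standard error 0.45, limma adjusted p = 0.000663). Of the exon bases of *Vegfc*, 10.5% are shared with the gene model *Gm64018*, and reads on them cannot be assigned by strand in these libraries.

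*Vegfd* (chromosome X, 163156518 to 163185644) encodes VEGF-D, the closest relative of VEGF-C. Its normalized counts were 367, 230, 165, 72.4 and 195 in hypHSC 1 to 5. In qHSC 1 to 5 they were 88.7, 84.4, 135, 98.4 and 60.7. Only hypHSC 4 lay within the qHSC range. The mean was 206 ± 107 (SD, n = 5) against 93.4 ± 26.9, and the log2 fold change of 0.998 (95% interval 0.06 to 1.94) did not pass limma's test (adjusted p = 0.0758). Without hypHSC 4 the change was 1.33 and passed (adjusted p = 0.0120). Count tests on the reads recovered from the table also called it higher, DESeq2 at 1.17 (adjusted p = 0.0126) and edgeR at 1.17 (adjusted p = 0.0362), whereas scaling on the 3 reference genes took it to 0.07.

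*Pgf* (chromosome 12, 85213413 to 85224087) encodes placental growth factor, a ligand of VEGFR1 alone. It had 32.3, 0, 9.98, 3.15 and 0 normalized counts in hypHSC 1 to 5, and 5.43, 2.56, 9.45, 29.95 and 42.7 in qHSC 1 to 5. With 10 or more normalized counts in 3 of 10 libraries it was not tested across all genes, and the groups overlapped from end to end. Its reads numbered 0 to 24 in hypHSCs and 3 to 57 in qHSCs. A difference was not detectable at this depth (exact two-sided permutation p = 0.246, n = 5 and 5), and 3 reads in a library amount to 2.49 to 4.54 normalized counts in hypHSCs and 2.25 to 2.72 in qHSCs.

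The pair of angiopoietins moved in opposite directions. *Angpt1* (chromosome 15, 42288063 to 42540374), the agonist of TIE2, had 84.9, 20.7, 85.7, 17.8 and 48.4 normalized counts in hypHSC 1 to 5. Against these stood 453, 508, 346, 434 and 410 in qHSC 1 to 5. Every qHSC library was well above every hypHSC library. The qHSC values were also tight, with a coefficient of variation of 13.8% against 64.2% in hypHSCs. The mean fell from 430.1 ± 59.5 (SD, n = 5) to 51.5 ± 33.1, a log2 fold change of -3.31 (standard error 0.47, limma adjusted p = 0.000165).

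*Angpt2* (chromosome 8, 18740279 to 18791578), which encodes the antagonist, had 307, 118, 124, 75.5 and 141 normalized counts in hypHSC 1 to 5. In qHSC 1 to 5 it had 2.72, 1.70, 0, 20.5 and 20.2, from 3, 2, 0, 24 and 27 reads. The qHSC libraries themselves fell apart into 3 with at most 3 reads and 2 with more than 20. The mean rose from 9.04 ± 10.4 (SD, n = 5) to 153 ± 89.5, a log2 fold change of 4.67 (standard error 0.87, 95% interval 2.77 to 6.57, limma adjusted p = 0.00106). It was 4.07 without qHSC 3 and 5.17 without qHSC 4 or without qHSC 5, and 3.68 with a pseudocount of 5. *Angpt2* lies within *Mcph1*, which is transcribed from the opposite strand, and 70.7% of its exon bases are also *Mcph1* exon. The libraries carry no strand, so reads of the pair cannot be told apart there. *Mcph1* itself, looked at after the values of *Angpt2* were seen, averaged 208 ± 120 in hypHSCs against 108 ± 21.1 (log2 fold change 0.59, limma adjusted p = 0.42), with overlapping groups. Its part in the counts of *Angpt2* was not tested.

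**Figure D2:**
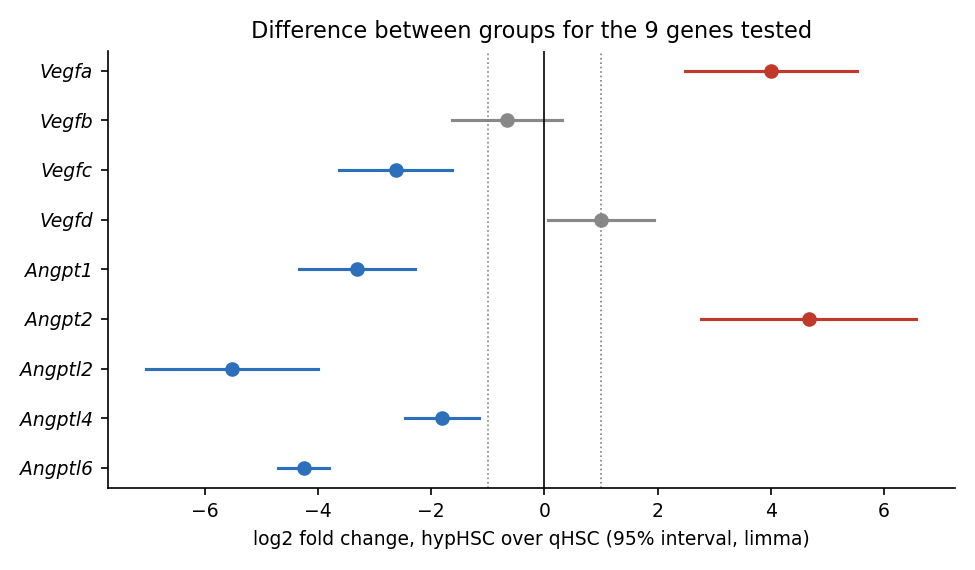
Log2 fold change of hypHSC over qHSC for the 9 genes tested, on the horizontal axis, with 95% intervals from limma; red, higher DEG; blue, lower DEG; grey, not a DEG; dotted lines mark the fold change threshold of 1. The values run from -5.52 for *Angptl2* to 4.67 for *Angpt2*, and the intervals of *Vegfb* and *Vegfd* reach past the threshold on one side only.

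All 3 angiopoietin-like genes fell. *Angptl2* (chromosome 2, 33105972 to 33137726) encodes a secreted pro-inflammatory protein that binds integrins. In hypHSC 1 to 5 its normalized counts were 396, 563, 450, 63.0 and 43.9. In qHSC 1 to 5 they were 11976, 14370, 7342, 7219 and 6570. The gap between the groups was more than 10-fold even between the nearest libraries. Its mean fell from 9495 ± 3475 (SD, n = 5) to 303 ± 236, a log2 fold change of -5.52 (standard error 0.69, limma adjusted p = 6.99e-05). Among hypHSCs, hypHSC 4 and 5 were the lowest for *Angptl2* and also for the summed markers of activated stellate cells (7035 and 4376) and of portal fibroblasts (150 and 121). The endothelial sum was lowest in the same libraries (3048 and 2966), as was the macrophage gene *Csf1r* (5275 and 1833 normalized counts), though not the macrophage sum. Quiescent stellate cell markers went otherwise, with sums of 6117 and 4955 there and lower ones in hypHSC 2 (4546) and hypHSC 3 (4712). Single members of the activated list, such as *Timp1* and *Lox*, were not lowest in both hypHSC 4 and 5. With hypHSC 1, 2 and 3 only, the log2 fold change was -4.28 (limma adjusted p = 1.55e-06).

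*Angptl4* (chromosome 17, 33992724 to 34000550) encodes an inhibitor of lipoprotein lipase that fasting and fatty acids induce through PPARs. It had 543, 846, 544, 290 and 324 normalized counts in hypHSC 1 to 5. The qHSC 1 to 5 libraries had 2104, 1431, 1240, 1585 and 2102. All 5 hypHSC libraries were lower than any qHSC library, and the change was the smallest of the 7. The mean fell from 1692 ± 394 (SD, n = 5) to 509 ± 223, a log2 fold change of -1.81 (standard error 0.30, limma adjusted p = 0.00051). With hypHSC 1, 2 and 3 only it was -1.39.

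*Angptl6* (chromosome 9, 20785105 to 20791006) encodes a secreted factor also known as angiopoietin-related growth factor. Its normalized counts were 87.6, 104, 146, 123 and 121 in hypHSC 1 to 5. They were 1887, 2074, 2078, 2179 and 2946 in qHSC 1 to 5. No other of the 10 genes was as uniform within hypHSCs, with a coefficient of variation of 19.0%, and it was 18.5% within qHSCs. The log2 fold change of -4.26 ranged from -4.34 to -4.15 over 10 limma fits that each left out 1 library. *Angptl6* shares 14.3% of its exon bases with *Shfl* on the opposite strand, which fell as well (1286 ± 232 to 154 ± 29.4, log2 fold change -3.06, limma adjusted p = 1.33e-06; chosen after its values were seen).

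Levels were compared between genes per length, as FPKM, the reads of a gene divided by its exon length and by the library's reads on genes with a symbol. In qHSCs the order was *Angptl2* (38.2 ± 14.1 FPKM, SD, n = 5), *Angptl6* (36.5 ± 5.0), *Angptl4* (11.4 ± 2.35), *Vegfc* (6.99 ± 2.0), *Vegfb* (2.10 ± 0.68), *Angpt1* (1.83 ± 0.24) and *Vegfd* (1.01 ± 0.34), with *Pgf*, *Angpt2* and *Vegfa* under 0.2. Of these neighbours, the ranges over libraries were separate between *Angptl6* and *Angptl4*, *Vegfc* and *Vegfb*, *Angpt1* and *Vegfd*, and *Vegfd* and *Pgf*, and overlapped elsewhere. Among 23200 genes ranked by FPKM, *Angptl6* had a median rank of 1043 and *Angptl2* of 1162 in qHSCs.

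In hypHSCs the order was *Angptl4* (2.77 ± 1.34 FPKM, SD, n = 5), *Vegfd* (1.74 ± 0.93), *Angptl6* (1.51 ± 0.40), *Vegfb* (1.11 ± 0.55), *Vegfc* (1.02 ± 0.73), *Angptl2* (1.01 ± 0.80), *Angpt2* (0.769 ± 0.46), *Vegfa* (0.278 ± 0.17), *Angpt1* (0.177 ± 0.13) and *Pgf* (0.0775 ± 0.11). Every pair of neighbours in this order overlapped over libraries. Median ranks there were 6188 for *Angptl6* and 7281 for *Angptl2*. The 10 genes together summed to 98.3 ± 10.2 FPKM in qHSCs and 10.4 ± 3.13 in hypHSCs. The 3 angiopoietin-like genes made most of that difference, with 86.1 ± 11.04 against 5.28 ± 2.23 FPKM, whereas the VEGF family summed to 10.3 ± 2.39 against 4.22 ± 1.91 and the angiopoietins to 1.88 ± 0.23 against 0.946 ± 0.55.

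**Figure D3:**
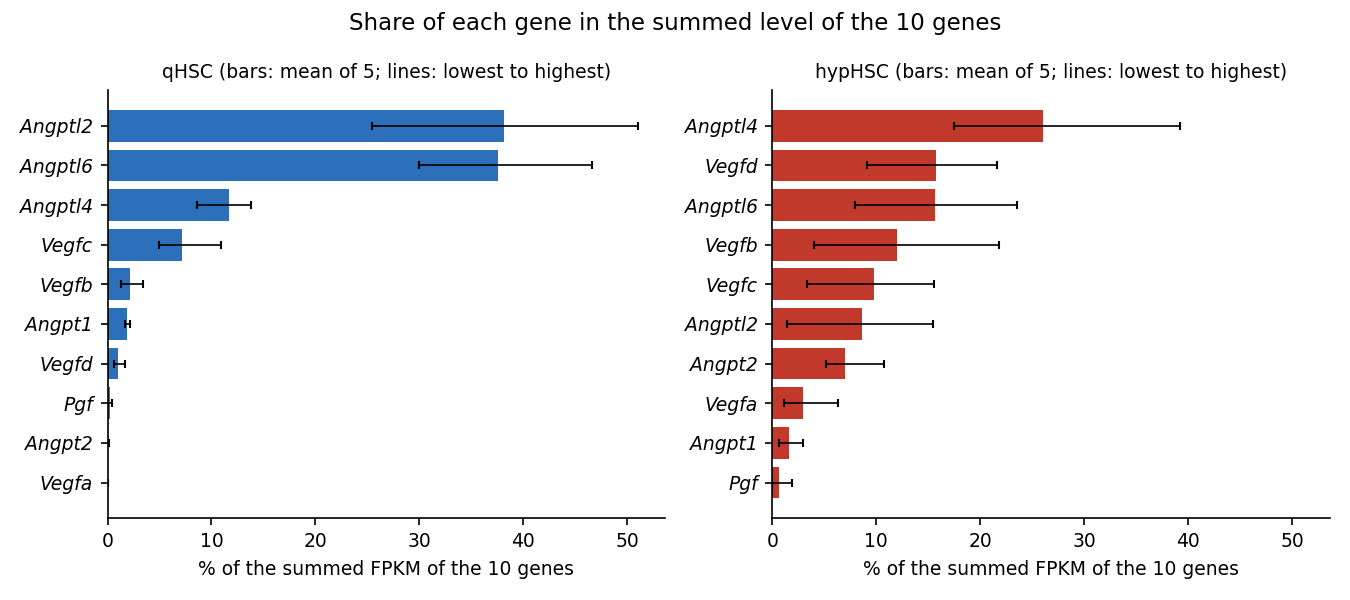
Share of each gene in the summed FPKM of the 10 genes, in percent on the horizontal axis, for qHSCs (left) and hypHSCs (right); bars are means of 5 libraries and lines run from the lowest to the highest library. *Angptl2* (38.2%) and *Angptl6* (37.6%) make most of the qHSC sum, and *Angptl4* (26.0%) has the largest mean share in hypHSCs.

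The balance between ligands that share a receptor or an ancestor was taken within each library, as a ratio of 2 genes. These ratios are descriptions with no test, on the scale log2 of (count + 1) over (count + 1), so where a gene has few or no reads a ratio follows the scaled count of the other gene and the pseudocount, as in qHSC 3 for *Angpt2* and in qHSC 1 for *Vegfa*. *Angpt2* over *Angpt1* was 1.84, 2.45, 0.53, 2.02 and 1.52 in hypHSC 1 to 5 and -6.93, -7.56, -8.44, -4.34 and -4.27 in qHSC 1 to 5. The sign thus differed between the groups in every library, with more *Angpt1* counts in qHSCs and more *Angpt2* counts in hypHSCs. The margin was smallest in hypHSC 3, with 149 reads of *Angpt2* against 103 of *Angpt1*. These are RNA counts not divided by length, and 70.7% of the exon bases of *Angpt2* are also *Mcph1* exon, whose part was not tested. *Vegfc* over *Vegfd* was 2.80 ± 0.53 (SD, n = 5) in qHSCs and -0.83 ± 0.98 in hypHSCs, and only in hypHSC 4 (0.41) was *Vegfc* the higher of the pair within that group. *Vegfb* over *Vegfa* was 6.27 ± 0.97 in qHSCs and 1.60 ± 0.40 in hypHSCs, so *Vegfb* had the higher count in all 10 libraries.

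*Angptl4* over *Angptl2* was -2.45 ± 0.61 (SD, n = 5) in qHSCs and 1.27 ± 1.17 in hypHSCs, with no overlap. *Pgf* over *Vegfa* was 2.18 ± 1.55 in qHSCs and -3.38 ± 2.58 in hypHSCs, from few reads of either gene. *Angptl6* over *Angptl2* was -2.03 ± 0.69 and -0.76 ± 1.82, and its ranges overlapped: hypHSC 4 (0.95) and hypHSC 5 (1.44) stood above the other 8 libraries.

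**Figure D4:**
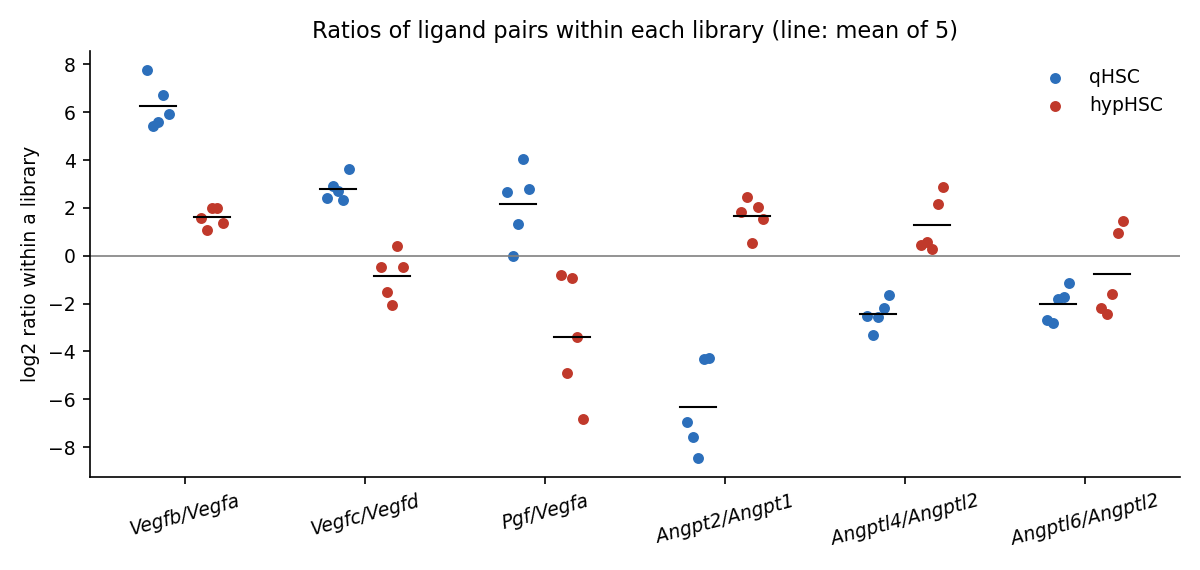
Log2 ratio of 6 pairs of ligand genes within each library on the vertical axis; points are libraries (blue, qHSC; red, hypHSC) and lines are means of 5. The ranges of the groups are separate for 5 pairs, by the widest margin for *Angpt2* over *Angpt1* (highest qHSC -4.27, lowest hypHSC 0.53), and overlap for *Angptl6* over *Angptl2*.

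The receptors and processing enzymes of these ligands were followed in lists drawn from general knowledge. Of 5 VEGF receptors and co-receptors, 4 were tested and 1, *Nrp2*, was a DEG (39.5% of all genes tested were). It entered the test through the 5 hypHSC libraries alone. *Nrp2*, a co-receptor for VEGF-C and semaphorins, had 178, 665, 455, 68.2 and 124 normalized counts in hypHSC 1 to 5 and a single read over the 5 qHSC libraries, a ratio of 1963 (95% interval 352 to 77602, counting error only). *Nrp1*, the co-receptor for VEGF-A, had far higher counts, 10435 ± 2238 (SD, n = 5) in hypHSCs and 5258 ± 1205 in qHSCs, with no overlap. Its log2 fold change of 0.99 (limma adjusted p = 0.00239) fell just short of the threshold and ran from 0.05, with scaling on the 3 reference genes, to 1.10, with equal upper quartiles, over the scalings. It passed without hypHSC 1 (1.12) or 4 (1.01), without qHSC 1 (1.02) or 2 (1.10), and with DESeq2 or edgeR (both 1.06). *Kdr* and *Flt1*, the genes of the main endothelial VEGF receptors, had log2 fold changes of 1.03 (limma adjusted p = 0.127) and 0.84 (adjusted p = 0.125). *Kdr* passed without hypHSC 1 (1.36, adjusted p = 0.0404) and with DESeq2 (1.30, adjusted p = 0.0399), and in no other of the settings tried, with 0.12 at the lowest when scaled on the 3 reference genes.

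*Tek*, which encodes TIE2, had 55.3, 0, 33.3, 0 and 7.56 normalized counts in hypHSC 1 to 5 and 104, 80.9, 70.1, 177 and 150 in qHSC 1 to 5. It was lower in hypHSCs by limma (-3.99, adjusted p = 0.0124) and missed the threshold with edgeR (-2.56, adjusted p = 0.0757) and with qHSC 2, 3 and 5 only (-3.78, limma adjusted p = 0.0661), among other settings. The call held in all 10 fits that left out 1 library and in 13 of 17 further settings. *Tek* reached 10 normalized counts in 7 libraries and entered the test through qHSCs, the group in which it was high. *Tie1*, its orphan partner, was called lower as well (-3.66, limma adjusted p = 0.0266). That call was lost without hypHSC 4 (-2.87) or without qHSC 1 (-3.62), 2 (-3.57), 4 (-3.58) or 5 (-3.63), and with DESeq2 or edgeR. *Ptprb*, the phosphatase that restrains TIE2, was not called (-0.14). Endothelial markers summed to 2966 to 6151 in hypHSCs and 1602 to 3265 in qHSCs. Of 7 tested, 3 were higher and 2 lower (17.8% of all genes were higher and 21.7% lower). *Stab1* (4.22), *Vwf* (4.16, tested through its hypHSC counts) and *Stab2* (1.92) were higher, and *Egfl7* (-4.50) and *Clec4g* (-2.95) lower. Single genes carried much of the sums, *Stab1* in hypHSCs (mean 3961) and *Clec4g* in qHSCs (mean 1166). *Pecam1* and *Cdh5* were not called and were scarce in both groups (35.1 ± 15.8 against 60.7 ± 83.8 and 21.3 ± 19.7 against 43.0 ± 51.5 normalized counts).

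VEGF-C and VEGF-D are made as precursors and cut by proteases. Of 6 genes of this step, 4 were lower in hypHSCs (21.7% of all genes were) and 1 was higher (17.8% of all genes), and the list's median log2 fold change was -3.94, against -0.20 for all genes. *Adamts3*, the main protease that activates VEGF-C, fell from 150 ± 49.9 (SD, n = 5) to 4.62 ± 4.28 normalized counts (-5.14, limma adjusted p = 0.000101). Its cofactor *Ccbe1* fell from 283 ± 87.6 to 55.4 ± 38.9 (-2.74, limma adjusted p = 0.00543). The related protease *Adamts14* (-5.76) and the proprotein convertase *Pcsk5* (-5.25) were lower too. *Adamts3* and *Pcsk5* reached 10 normalized counts in 6 libraries and *Adamts14* in 7. These 3 genes entered the test through qHSCs, the group in which they were high, so the counts and the median of this list are descriptions. *Furin*, another convertase, was higher (1.03, limma adjusted p = 0.00427), close to the threshold, and fell below it without hypHSC 2 (0.99), hypHSC 5 (0.86) or qHSC 1 (0.98). Scaling on the 3 reference genes left *Furin* at 0.09. *Pcsk7* was not called (-0.77).

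Among 5 receptors for angiopoietin-like proteins, 3 were higher in hypHSCs and 1 was lower, where 17.8% of all genes were higher and 21.7% lower. *Pirb*, an inhibitory receptor of myeloid cells that binds ANGPTL2, had 10070, 19187, 19434, 6871 and 3426 normalized counts in hypHSC 1 to 5 and 559, 52.0, 379, 1646 and 162 in qHSC 1 to 5 (4.96, limma adjusted p = 0.000485). Its order within qHSCs, highest in qHSC 4 and then qHSC 1, was that of the macrophage marker sum. Within hypHSCs the orders differed, with *Pirb* highest in hypHSC 3 and the macrophage sum highest in hypHSC 2. *Itga5*, a fibronectin receptor subunit that also binds ANGPTL2, was higher at 2.14 (limma adjusted p = 0.0114). *Itgb3*, which pairs with integrin alpha V, was lower at -5.81 (adjusted p = 0.000183). It reached 10 normalized counts in 7 libraries and entered the test through qHSCs, the group in which it was high. *Itgav* was higher at 1.15 and dropped to 0.999 without hypHSC 5, just under the threshold, to 0.80 with libraries scaled to equal totals and to 0.21 with the 3 reference genes. *Itgb1*, the common beta subunit, had a log2 fold change of -0.95 and passed the threshold without hypHSC 5 (-1.15).

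The partners of ANGPTL4 moved apart. Lipoprotein lipase (*Lpl*), the enzyme that ANGPTL4 inhibits, had 60631, 84159, 77115, 47635 and 36906 normalized counts in hypHSC 1 to 5. Its counts in qHSC 1 to 5 were 4884, 5321, 3895, 4420 and 3815. Every hypHSC library was more than 6-fold above the highest qHSC library. The log2 fold change was 3.73 (standard error 0.24, limma adjusted p = 5.42e-07), in the same libraries in which *Angptl4* was lower. Of 5 genes of this list, *Lipg*, which encodes endothelial lipase, was lower (-3.07, limma adjusted p = 0.00107), and *Lmf1*, the chaperone that matures lipases, was called lower at -1.30 (adjusted p = 0.0439). The call on *Lmf1* was lost without hypHSC 4 (-1.13), hypHSC 5 (-0.84) or any 1 qHSC library (-1.33 to -1.24). *Gpihbp1* (0.09) and *Lipc* (-1.37, adjusted p = 0.0656) were not called.

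*Angptl4* is a known target of PPARs. Of 10 PPAR regulators and targets, 2 were higher, 3 lower and 5 not called, with a median of -0.80, so the share of DEGs lay near the 39.5% of all genes. *Pparg* was the highest of the list (7.40) and *Plin2*, which coats lipid droplets, was higher at 1.72, or 0.78 with scaling on the 3 reference genes. *Pparg* reached 10 normalized counts in 7 libraries and entered the test through hypHSCs, the group in which it was high. *Ppara* (-2.04), the receptor gene *Rxra* (-1.77) and *Pdk4* (-2.33) were lower, *Pdk4* being, like *Angptl4*, a standard PPAR target. The call on *Ppara* was lost without qHSC 1 (-1.84, limma adjusted p = 0.0506). It held in the other fits that left out 1 library and in 12 of 17 further settings.

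*Vegfa*, *Angptl4* and *Angpt2* are also known to respond to hypoxia through the HIF transcription factors. Of 7 HIF pathway genes, 4 were lower in hypHSCs and none higher, with a median of -1.02. Over all genes, 21.7% were lower and 17.8% higher. *Epas1*, which encodes HIF-2 alpha, had 74.1, 358, 328, 2.10 and 12.1 normalized counts in hypHSC 1 to 5 and 4062, 5681, 651, 1943 and 1415 in qHSC 1 to 5 (-5.36, limma adjusted p = 0.00412). *Hif1a* had 592 ± 120 and 559 ± 75.6 (0.07, 95% interval -0.36 to 0.50, limma adjusted p = 0.784). *Arnt*, the shared partner of both, was lower at -1.43, as were *Vhl* (-1.16) and *Egln1* (-1.02), which mark HIF for decay. The call on *Egln1* was lost without hypHSC 2 (-0.89), hypHSC 3 (-0.91), qHSC 2 (-0.9998) or qHSC 5 (-0.99).

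Of 12 hypoxia target genes 11 were tested, of which 4 were higher and 4 lower, with a median of -0.42 (all genes: 17.8% higher, 21.7% lower). *Car9*, a carbonic anhydrase often read as a hypoxia marker, ranged from 112 to 234 normalized counts in hypHSCs against 0.85 to 20.5 (4.82, limma adjusted p = 0.000186). It reached 10 normalized counts in 6 libraries and entered the test through hypHSCs, where it was high. The count of higher genes in this list is thus a description. *Pdk1* (2.80), *Ankrd37* (2.27) and *Pgk1* (1.44) were also higher. *Ankrd37* shares 81.4% of its exon bases with *Lrp2bp* and *Ufsp2*, *Adm* 31.9% and *Car9* 27.5% with other gene models, so part of their reads cannot be assigned without strand. *Pgk1* was 0.50 and not called with scaling on the 3 reference genes, of which it is one. *Adm*, the gene of the vessel-dilating peptide adrenomedullin, was lower (368 ± 232 against 4145 ± 580, -3.80, limma adjusted p = 6.4e-05), as were *P4ha1* (-1.49), *Ndrg1* (-1.35) and *Kdm3a* (-1.03). *Ldha* stayed below the fold change threshold (0.74). The calls on *Ndrg1* were lost without hypHSC 4 (-1.25) or without qHSC 1 (-1.29), 2 (-1.17) or 3 (-1.33). Those on *Kdm3a* were lost without hypHSC 1 (-0.88), 4 (-0.997) or 5 (-0.94), or without qHSC 2 (-0.94) or 4 (-0.98).

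Of a list of 7 secreted regulators of angiogenesis, drawn up as inhibitors although *Vash2* is described as promoting vessel growth, 1 was higher, 3 were lower and 3 were not called (17.8% of all genes were higher and 21.7% lower), with a median of -0.88. *Thbs2*, which encodes an antiangiogenic thrombospondin, was lower at -2.13 (limma adjusted p = 0.000214), as were *Vash1* (-2.71) and *Timp3* (-1.62). *Timp3*, which shares 21.3% of its exon bases with *Syn3*, was -0.82 with hypHSC 1, 2 and 3 only and lost its call there, with qHSC 2, 3 and 5 only (limma adjusted p = 0.0535) and with qHSC of 34 weeks only. *Vash2*, a relative of *Vash1*, was the gene that was higher (37.4 ± 18.7 against 6.42 ± 6.18 normalized counts, 2.92, limma adjusted p = 0.0243). Its call was lost without hypHSC 1 (2.75), hypHSC 2 (2.72), qHSC 3 (2.39) or qHSC 4 (2.39).

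**Figure D5:**
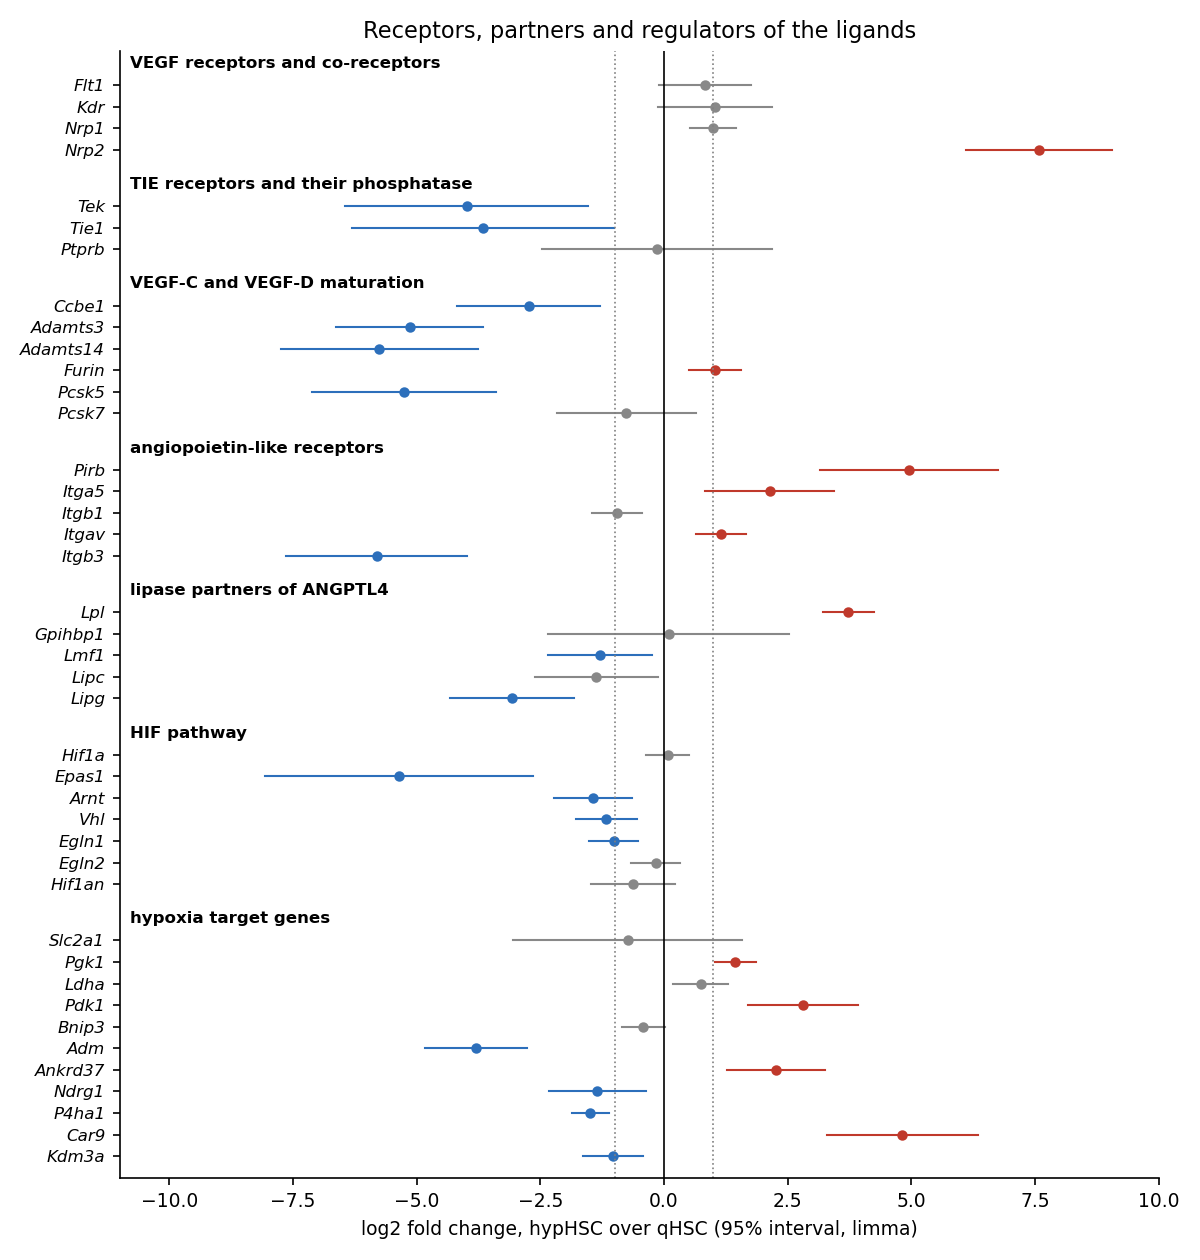
Log2 fold change of hypHSC over qHSC with 95% intervals from limma, on the horizontal axis, for the tested genes of 7 lists of receptors, partners and regulators; red, higher DEG; blue, lower DEG; grey, not a DEG; dotted lines mark the threshold of 1. *Lpl* (3.73) and *Nrp2* (7.58, a fitted size that rests on 1 qHSC read) lie to the right and *Adamts14*, *Pcsk5* and *Adamts3* of VEGF-C maturation (-5.76 to -5.14) to the left.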

How the data were processed

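The authors deposited 1 table of DESeq2 normalized counts for all 10 libraries (a signal unit, rounded to 2 decimals). Per the labels and the study's methods, non-stranded oligo-dT libraries were sequenced in pairs and counted on the FAST DB annotation. The submitters' processing notes name STAR, featureCounts (Subread 1.5.0), SAMtools 1.0, Picard 1.119, FastQC 0.11.2 and the build mm39. All columns matched a listed sample. Each library's size factor (0.661 to 1.20 in hypHSC, 1.10 to 1.33 in qHSC) gave whole reads for 100% of values.

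The main test was limma 3.58.1 (R 4.3.3, empirical Bayes with an intensity trend) on log2(normalized count + 1), over the 14630 symbol-bearing genes that reached 10 normalized counts in 5 or more libraries, with Benjamini-Hochberg adjustment over all of them. The fold change on this scale understates the change of low genes. The recovered reads were tested with DESeq2 1.42.0 and edgeR 4.0.16 as alternatives. Other pseudocounts, filters, scalings, subsets and leaving out each library were also tried. FPKM used recovered reads and merged exon lengths of GENCODE vM39 (GRCm39). Scripts were tested on simulated data. Reads carry no molecular identifiers, so floors and intervals on reads cover counting error only. The 10 genes and the lists were chosen with earlier results of these data known; all 10 genes are named, and from longer lists those with extreme values or a role tied to a ligand. Genes added after values were seen are marked so. Some results are not reported here.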

Additional observations from a re-analysis of the deposited data

How the results depend on the processing

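Among the 10 genes, 7 were DEGs in the main fit, and the same 7 were called in the same direction under every alternative that tested them. Keeping genes with a mean of 100 normalized counts or more dropped *Vegfa* and *Angpt2*, leaving 5. The number called was 7 to 8 with 1 library left out, 8 with DESeq2, edgeR or the 3 reference genes, and 9 with hypHSC 1, 2 and 3 only. Over all genes, 5779 were DEGs, 5241 to 5914 with 1 library left out, 9291 with entries without a symbol included, and 3050 with qHSC of 34 weeks only (2 libraries). The split of 2602 higher and 3177 lower became 2022 and 4224 when only the scaling changed to equal totals (median log2 fold change -0.54) and 1472 and 6989 with the 3 reference genes (-1.12). With another model and test it was 3014 and 2847 (DESeq2) or 2786 and 2550 (edgeR). The log2 ratio of *Vegfb* to *Vegfa* (hypHSC minus qHSC) was -4.67 and moved to -3.44 with a pseudocount of 5, which took *Pgf* to *Vegfa* from -5.55 to -3.61 and *Angpt2* to *Angpt1* from 7.98 to 6.85.

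Deviations of libraries with the same replicate number had correlations of 0.0082 to 0.129. Those with different numbers had -0.132 to 0.155. This check showed no clear pairing by number, but it is no test and cannot exclude one. With the replicate block, 5786 genes and 7 of the 10 were called. The libraries hypHSC 4 and 5 had lower summed markers of activated stellate cells, portal fibroblasts and endothelial cells, but not of quiescent stellate cells. Restricting to hypHSC 1, 2 and 3 or to qHSC 2, 3 and 5 (fewer macrophage transcripts) was chosen after seeing the data. The first turned *Ptprb* to 1.57 and *Slc2a1* to 1.002, where the main values were -0.14 and -0.74; the second left 4874 DEGs and the same 7. For the genes of the lists, 1486 values under alternatives kept their call, 104 lost it and 39 gained it. The losses named above for single genes are not all of them. Apart from fits that left out 1 library, calls held in 12 of 17 settings for *Tie1* and for *Vash2*. They held in 10 of 18 for *Kdm3a*, 11 of 18 for *Lmf1*, 12 of 18 for *Egln1*, 13 of 18 for *Furin* and 14 of 18 for *Ndrg1*. The cause of these shifts was not tested. Depth limits *Vegfa*, *Angpt2* and *Pgf*, which had at most 7, 27 and 57 reads in any qHSC library.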
